A study of Mus musculus with 4 samples.

Results

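The hemidesmosome and anchoring fibril genes described here are Col17a1, Col7a1, Lama3, Lamb3, Itga6, Itgb4, Plec, Dst and Cd151, 9 of the 12384 genes that the arrays measured with at least 1 probe set of a single gene symbol. They were chosen by symbol, and every probe set annotated to one of these symbols alone was used. That gave 19 probe sets: 6 for Cd151, 4 for Dst, 2 each for Itga6 and Plec, and 1 for each of the other genes. Cells were hair follicle stem cells sorted from the back skin of female mice (CD1/C57BL/6, about postnatal day 60). The sort used the fluorescent protein YFP, integrin α6 and CD34, the last a marker of the follicle's bulge, where its stem cells sit. There were 2 arrays from conditional knockouts (cKO) of the T-box transcription factor gene Tbx1 and 2 from wild type (WT) mice, and each genotype had 1 array in set 1 and 1 in set 2. By the treatment text all mice had the hair of the mid-back stripped with wax 48 h before harvest, whereas the sample descriptions call set 1 quiescent and set 2 activated, a difference the labels do not settle. The sources used here do not give the Cre driver of the knockout or say whether mice were pooled.

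Hemidesmosomes rivet the basal surface of epithelial cells to the basement membrane. Inside the cell the plakins plectin (Plec) and BPAG1 (Dst) tie keratin filaments to integrin α6β4 (Itga6 and Itgb4) and to the transmembrane collagen XVII (Col17a1), with the tetraspanin CD151 in the same complex. Outside the cell, α6β4 and collagen XVII meet laminin-332, a trimer whose chains include α3 and β3, and collagen VII (Col7a1) forms the anchoring fibrils that hold the basement membrane to the dermis. In the bulge, collagen XVII is known to keep hair follicle stem cells anchored and maintained.

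Levels are log2 of the deposited intensity, and differences are cKO minus WT on that scale, so that 1 is a doubling. The median log2 intensity was 6.36 to 6.38 on all 4 arrays. Genes with a mean below a log2 intensity of 5.40 were treated as dim and left out of the tests, and all 9 members lay above that limit on every array in the probe set with the highest mean, which represents the gene. Tbx1 read 9.54 and 8.88 in cKO against 10.53 and 10.37 in WT, so both knockout arrays were below both wild type arrays; the sources used here do not say whether its probe set lies in the deleted part. The sort marker Cd34 read 9.46 and 9.12 against 8.85 and 8.96. All 10 bulge markers listed for the check, Cd34 and Tbx1 among them, were above the limit on all arrays. This is a weak check, since 8031 of the 12384 genes were kept by the limit on their mean. Of the 10, 4 were higher and 2 lower in cKO within both sets. An exact permutation test of 2 against 2 arrays cannot give a p below 0.333, and the labels do not say whether arrays within a genotype represent different mice, so the spread behind limma's p-values may be purely technical. The cKO set 1 array and the WT set 2 array stood apart in other ways. The added Dap control was 2.95 higher at its 3′ than at its 5′ end on the former and 1.74 to 1.82 on the others, and the nuclear RNA Malat1 read 12.35 on the latter and 9.80 to 10.56 on the others. Each member's difference is therefore also given between the remaining arrays, cKO set 2 and WT set 1, a value that mixes genotype with set.

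Between genotypes, 5 of the 9 genes reached a 1.5-fold higher level in cKO within set 1 and again within set 2: Col7a1, Col17a1, Lamb3, Itgb4 and Plec. This held for 3.04% of all 8031 genes tested. In 7 of the 9 genes both cKO arrays lay above both WT arrays, as they did for 26.7% of all genes, and in none did they lie below (19.9% of all genes). The same 7 genes were higher in cKO within both sets, beside 35.8% of all genes, and none was lower, beside 27.9%. Over the members' 18 probe sets above the dim limit, 9 had both cKO arrays above both WT arrays and 11 were higher in cKO within both sets, where the shares over all 12527 probe sets were 23.4% and 31.6%. The median difference was 0.67 over the 9 members, 0.62 in set 1 and 0.70 in set 2, beside 0.03 over all genes. It was 0.30 over the 18 single probe sets, and 0.44 without the cKO set 1 array. No member passed limma's test over all genes at an adjusted p under 0.05, where 7 genes in all, or 0.0872%, passed, 2 of them (0.0249%) higher in cKO. An unadjusted p under 0.05 was found by limma for the 5 members named above and for 14.2% of all genes, or 8.37% counting only those higher in cKO. With a block for set, 1 member, Col7a1, passed, as did 1.03% of all genes (0.66% higher in cKO). On simulated data false calls exceeded the nominal rate, more so with the block. The members were chosen with earlier results of these data known, so these counts describe them and are no independent evidence of a shift.

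**Figure D1:**
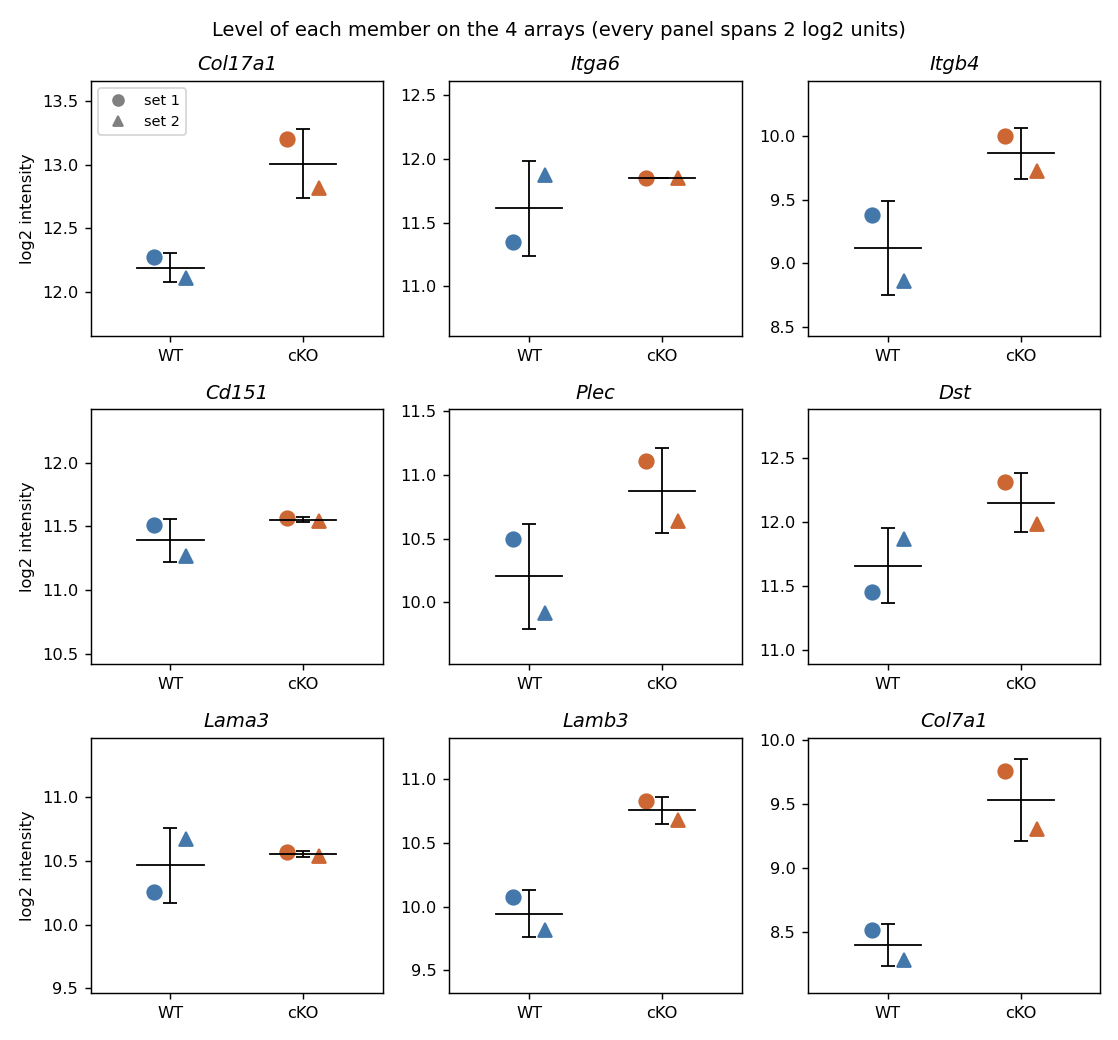
Log2 intensity of the 9 members on the 4 arrays, WT in blue and cKO in orange, set 1 as circles and set 2 as triangles, with the group mean as a line and the SD (n = 2) as a bar; every panel spans 2 log2 units around its own middle. Both cKO points lie above both WT points for Col17a1, Itgb4, Plec, Lamb3 and Col7a1 and, more narrowly, for Dst and Cd151, while Itga6 and Lama3 overlap.

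The anchoring fibril gene Col7a1 had the largest difference of the 9. It read 9.76 and 9.30 on the cKO arrays of set 1 and set 2 against 8.51 and 8.28 on the WT arrays, the order in which levels are given throughout. The lower cKO array was 0.79 above the higher WT array, so the groups did not overlap. The group means were 9.53 ± 0.32 in cKO and 8.40 ± 0.17 in WT (SD, n = 2), a difference of 1.13 (SE 0.21), or 2.19-fold, which ranked 93 among the 8031 genes. Within the sets it was 2.37-fold in set 1 and 2.03-fold in set 2. limma's adjusted p was 0.167 without the block and 0.0405 with the set as a block, the only call made on a member under any setting, and it ran from 0.0405 to 0.693 over the alternatives.

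Col17a1, the collagen that spans the basal membrane, had a difference of 0.81 (SE 0.20, limma adjusted p = 0.22), or 1.76-fold. Its levels were 13.20 and 12.81 in cKO and 12.27 and 12.11 in WT, again without overlap. The means were 13.01 ± 0.27 and 12.19 ± 0.11 (SD, n = 2), and the difference was 0.93 in set 1 and 0.70 in set 2. From WT set 1 to cKO set 2 the step was 0.54 for Col17a1 and 0.79 for Col7a1.

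Sequence before the annotated start is shown for both collagen genes and for Cd151. The groups did not overlap in any of the 3, but those of Cd151 stood only 0.03 apart and its difference was among the smallest. Windows of the RefSeq promoter table (GRCm38.p6) were used for 5 of the 9 genes. For Itga6, Itgb4, Plec and Lama3 none was used, because none was held or because windows of its chromosome were left out. Each sequence is the 250 bases upstream of the start, 5′ to 3′ on the gene's strand, with capitals marking a GC box (GGGCGG) or a TATA box (TATAAA) on either strand. Col7a1 lies at chr9:108953336-108953585 on the plus strand, Col17a1 at chr19:47692043-47692292 on the minus strand and Cd151 at chr7:141467112-141467361 on the plus strand.
Col7a1: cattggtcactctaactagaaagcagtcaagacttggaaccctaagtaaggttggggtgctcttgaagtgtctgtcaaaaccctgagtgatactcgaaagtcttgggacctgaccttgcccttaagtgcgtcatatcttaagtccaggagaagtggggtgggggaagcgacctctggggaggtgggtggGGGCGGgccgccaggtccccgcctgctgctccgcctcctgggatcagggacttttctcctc
Col17a1: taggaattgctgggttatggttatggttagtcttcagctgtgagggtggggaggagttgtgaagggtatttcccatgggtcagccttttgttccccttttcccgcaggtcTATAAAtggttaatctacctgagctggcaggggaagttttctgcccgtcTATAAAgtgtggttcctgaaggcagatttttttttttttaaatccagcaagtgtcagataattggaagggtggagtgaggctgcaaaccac
Cd151: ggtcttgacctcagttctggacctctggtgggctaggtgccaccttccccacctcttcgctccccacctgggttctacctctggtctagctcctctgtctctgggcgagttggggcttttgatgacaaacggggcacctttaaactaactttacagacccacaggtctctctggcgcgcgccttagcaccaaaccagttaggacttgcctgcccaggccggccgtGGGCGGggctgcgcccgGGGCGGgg
The windows differ in composition and in these short motifs. The Col7a1 window held 1 GC box, which begins 61 bases before the start, and the Cd151 window held 2, at 25 and 8 bases. The Col17a1 window held no GC box and 2 TATA boxes, at 140 and 91 bases. Of the windows not shown, 1 of Dst held 4 GC boxes. The other Dst window, both Lamb3 windows and a second Cd151 window held neither motif. A GC box occurs in 32.7% and a TATA box in 12.4% of all 32851 windows of this length. G and C made up 56.4% of the Col7a1, 46.0% of the Col17a1 and 62.4% of the Cd151 window, beside a median of 52.4% over all windows. An AP-1 motif (TGANTCA, in 6.75% of windows) and a T-box motif (AGGTGTGA, in 1.12%) were searched for on both strands as well. Neither string of letters is in any of the 8 windows used for the members.

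The integrin chains that pair as α6β4 differed from each other in pattern. Itgb4, the β4 chain with the long cytoplasmic tail that binds plectin, read 10.0025 and 9.72 in cKO against 9.38 and 8.86 in WT. The groups did not overlap, and WT set 2 was the lowest array. The difference was 0.74 (SE 0.23, limma adjusted p = 0.281), or 1.67-fold, between 9.86 ± 0.20 in cKO and 9.12 ± 0.37 in WT (SD, n = 2), and it was 0.62 in set 1 and 0.86 in set 2. Between cKO set 2 and WT set 1 it was 0.34, and without the WT set 2 array 0.48.

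Itga6 encodes the α6 chain, whose protein on the cell surface was used for the sort in every sample. Whether that bears on its RNA level was not tested. Its brighter probe set read 11.85 on both cKO arrays, 11.35 on WT set 1 and 11.87 on WT set 2. Only the WT set 1 array was low, and the groups overlapped. The difference was 0.24 (SE 0.22, limma adjusted p = 0.662), 0.50 in set 1 and -0.02 in set 2, and without the WT set 1 array it turned to -0.02. From WT set 1 to cKO set 2 it was 0.50. The second probe set read 10.41 and 10.71 in cKO against 10.19 and 10.50 in WT, a difference of 0.22 in set 1 and 0.21 in set 2. There both set 2 arrays were above both set 1 arrays. Within the same arrays, the difference of Itgb4 exceeded that of Itga6 by 0.12 in set 1 and 0.89 in set 2, a contrast that was not tested.

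Cd151, the tetraspanin that binds laminin-binding integrins, had small differences in all 6 of its probe sets. The representative one read 11.57 and 11.54 in cKO against 11.51 and 11.27 in WT, with a gap between the groups of 0.03. The means were 11.55 ± 0.02 and 11.39 ± 0.17 (SD, n = 2), a difference of 0.16 (SE 0.17, limma adjusted p = 0.701), or 0.04 without the WT set 2 array, 0.29 without WT set 1 and 0.03 between WT set 1 and cKO set 2. Over the 5 probe sets above the dim limit the differences ran from 0.04 to 0.16, and 3 of them, 1424093_x_at, 1437670_x_at and 1451232_at, were lower in cKO in set 1 and higher in set 2. The widest was 1451232_at, with -0.40 in set 1 and 0.51 in set 2. The sixth, 1420921_at, lay between 4.50 and 4.63 on all arrays, below the limit. Probe sets whose names end in _x_at, here 3 including the representative one, can bind related transcripts.

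Plectin, encoded by Plec, is the linker from β4 to keratin. Its brighter probe set read 11.11 and 10.64 in cKO against 10.50 and 9.91 in WT. The groups stood 0.15 apart, less than the distance between the arrays of either group. The mean was 10.88 ± 0.33 in cKO and 10.20 ± 0.41 in WT (SD, n = 2). The difference was 0.67 (SE 0.27, limma adjusted p = 0.347), or 1.59-fold, with 0.61 in set 1 and 0.73 in set 2. It was 0.15 between cKO set 2 and WT set 1, 0.38 without the WT set 2 array and 0.44 if the cKO set 1 array was left out instead. The second probe set, 1434610_at, read 7.90 and 7.89 in cKO against 7.73 and 7.35 in WT, a difference of 0.35. Probe sets ending in _s_at, as the brighter one does, can bind transcripts of more than 1 gene.

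Dst encodes a family of plakins, of which BPAG1e is the epithelial form that sits in hemidesmosomes and others serve nerve and muscle. Its representative probe set, 1421117_at, read 12.32 and 11.99 in cKO against 11.45 and 11.87 in WT. The groups did not overlap, but the WT set 2 array was only 0.12 below the cKO set 2 array. The difference was 0.49 (SE 0.22, limma adjusted p = 0.386), with 0.87 in set 1 and 0.12 in set 2, and without the WT set 1 array it was 0.28. Between cKO set 2 and WT set 1 it was 0.54. The 4 Dst probe sets did not behave alike. A second one matched to the same transcript record, 1450119_at, read 11.04 and 10.80 in cKO against 9.98 and 11.14 in WT, a difference of 1.06 in set 1 and -0.34 in set 2. Both were lowest on the WT set 1 array. The dimmer pair, 1423626_at and 1421276_a_at, separated the sets instead of the genotypes. The former read 8.25 and 7.99 in set 2 and 7.68 and 7.16 in set 1 (cKO first), and the latter 6.13 and 5.85 in set 2 and 4.96 and 5.17 in set 1. On both, each set 2 array was above each set 1 array, as in 11.1% of all genes. The RefSeq table lists 36 transcripts for Dst, and the sources used here do not say which of them each probe set detects.

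**Figure D2:**
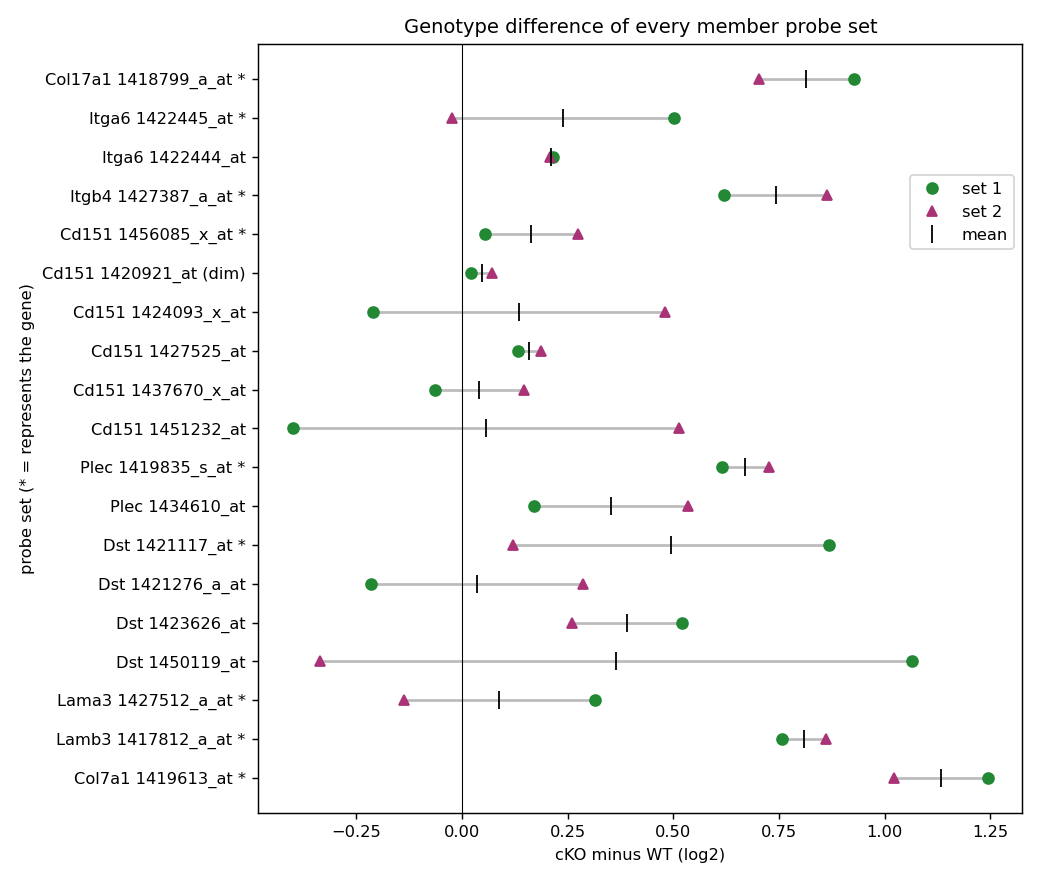
Difference of cKO minus WT (log2) of each of the 19 probe sets within set 1 (circles) and set 2 (triangles), with their mean as a tick; an asterisk marks the probe set that represents the gene, and 1 Cd151 probe set lay below the dim limit. Both sets lie well to the right of 0 for Col17a1, Itgb4, Plec 1419835_s_at, Lamb3 and Col7a1, whereas Itga6, Cd151, Dst and Lama3 have probe sets with points on both sides of 0.

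Of the laminin-332 chains, α3 and β3 are encoded by Lama3 and Lamb3. Lamb3 read 10.83 and 10.68 in cKO against 10.07 and 9.82 in WT, with 0.61 between the groups. This gap was wider than the distance between the arrays of either group. The means were 10.75 ± 0.11 and 9.94 ± 0.18 (SD, n = 2), and the difference was 0.81 (SE 0.18, limma adjusted p = 0.196), or 1.75-fold, with 0.76 in set 1 and 0.86 in set 2 and 0.61 between cKO set 2 and WT set 1.

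Lama3 overlapped between the groups. It read 10.57 and 10.54 in cKO against 10.26 and 10.67 in WT, so the WT arrays lay on either side of the cKO arrays. The difference was 0.09 (SE 0.20, limma adjusted p = 0.87), with 0.31 in set 1 and -0.14 in set 2, and without the WT set 1 array it was -0.12. Between cKO set 2 and WT set 1 it was 0.28. The difference of Lamb3 exceeded that of Lama3 by 0.44 in set 1 and 1.00 in set 2.

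The 9 genes fell into 3 orders over the arrays. Cd151, Col17a1, Col7a1, Itgb4, Lamb3 and Plec were highest on cKO set 1, then cKO set 2, then WT set 1, and lowest on WT set 2, an order that 11.3% of all genes shared. Itga6 and Lama3 were highest on WT set 2, then cKO set 1, then cKO set 2, and lowest on WT set 1, the exact order of 3.39% of all genes. Dst was highest on cKO set 1, then cKO set 2, then WT set 2, and lowest on WT set 1, the exact order of 4.88%. So WT set 2 was the lowest array for 6 members, as for 39.6% of all genes, and WT set 1 for 3, as for 19.8%. The distance between the profiles of a pair of members, the root mean square difference of their centred log2 levels over the 4 arrays, was smallest for Itgb4 and Plec (0.0793), Itga6 and Lama3 (0.0848) and Col17a1 and Lamb3 (0.0893). Among the 36 pairs, the chains of α6β4 and those of laminin-332 were far apart: Itga6 and Itgb4 ranked 30 (0.459) and Lama3 and Lamb3 ranked 28 (0.435). Itgb4 and Plec, whose proteins also bind, ranked 1. The profile of Itga6 is that of its brighter probe set. These distances describe 4 arrays and carry no test.

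**Figure D3:**
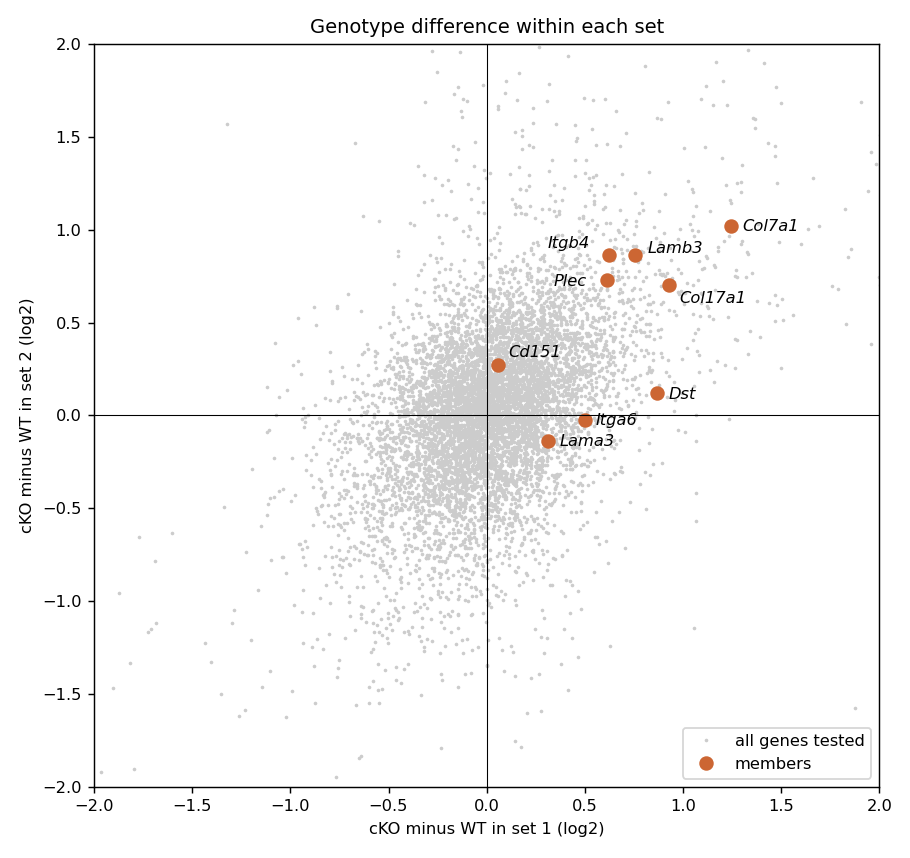
Difference of cKO minus WT (log2) in set 1 (horizontal axis) against set 2 (vertical axis) for all 8031 genes tested (grey) and the 9 members (orange); 58 genes lie outside the axes. Col7a1, Col17a1, Lamb3, Itgb4 and Plec lie above 0.6 on both axes, Dst, Itga6 and Lama3 lie to the right with set 2 values near 0, and Cd151 lies near the centre.

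Between sets, no member differed by limma's test, with set 2 minus set 1 differences from -0.53 (SE 0.34) for Plec to 0.26 (SE 0.23) for Itga6 and an adjusted p of 0.999 for all 9. The count over all genes was 0, or 0%, and 230 genes (2.86%) had an unadjusted p under 0.05, of which 0 were members. That fit had no term for genotype, so a genotype difference widened its SE, and the 0 members do not show that the sets were alike. With genotype as a block limma called 1 gene (0.0125%), not a member, and 690 of the 8031 genes had an unadjusted p under 0.05. Of the 9 members only 1, Plec, was among these (SE 0.17, limma unadjusted p = 0.0187), a share near that of all genes. Itgb4 (limma unadjusted p = 0.058) was not. The median over members was -0.20, beside -0.05 over all genes. Col7a1, Col17a1, Lamb3, Itgb4, Plec and Cd151 were lower in set 2 within both genotypes, as were 35.8% of all genes, and no member was higher within both (19.8% of all genes). For Col7a1 the values were -0.46 in cKO and -0.23 in WT, for Itgb4 -0.28 and -0.52, and for Plec -0.47 and -0.58. Dst, Itga6 and Lama3 went the other way in WT, with 0.42, 0.53 and 0.42, against -0.33, 0.00 and -0.03 in cKO. No member's representative probe set separated the sets on all 4 arrays.

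Neighbouring genes of the basement membrane and of cell adhesion, from 7 lists chosen with earlier results known, had a median difference of 0.14 over the 56 that were tested. Between genotypes 29 of the 56 were higher and 10 lower in cKO within both sets, beside 35.8% and 27.9% of all genes. None passed limma's test without the block, and 12 had an unadjusted p under 0.05, beside 14.2% of all genes. With the set as a block 1 passed, Tspan13, a tetraspanin, which read 6.07 and 6.19 in cKO against 7.50 and 7.41 in WT (difference -1.33, limma adjusted p = 0.079 without and 0.0253 with the block, and 0.0253 to 0.387 over the alternatives). Both cKO arrays lay below both WT arrays for Tspan13. The other list genes named here had adjusted p-values from 0.211 to 0.882 in limma's test without the block.

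The other laminin chains had differences in both directions, with a median of -0.05 over 6 genes. Lama5, whose α5 chain is in another laminin of the epidermal basement membrane, differed by -0.50, and Lamc1, the γ1 chain of most other laminins, by -0.33. Lamb1 differed by -0.24 and Lama4, the α4 chain of vessels and mesenchyme, by 0.58. For Lama5 both cKO arrays were below both WT arrays, and for Lama4 above.

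Other basement membrane components had a median of 0.18 over 11 genes. The network collagen gene Col4a1 differed by -0.56, with both cKO arrays below both WT arrays. Ecm1, an extracellular matrix protein that binds basement membrane components, differed by 0.83, Col4a5 by 0.37 and Npnt (nephronectin, a basement membrane ligand made by bulge cells) by 0.30. Both cKO arrays were above both WT arrays for these last 3 genes.

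Among the other plakins the median was 0.51 over 5 genes, and 4 were higher in cKO within both sets, as were 35.8% of all genes; none passed a test. Ppl (periplakin) differed by 0.62, Evpl (envoplakin) by 0.54, Eppk1 (epiplakin) by 0.51 and the desmosomal Dsp (desmoplakin) by 0.16. Of the keratins to which plakins attach, Krt15 differed by 0.51, whereas Krt14 and Krt5 differed by 0.10 and 0.07 with overlapping groups. The other tetraspanins had a median of 0.17 over 12 genes, and the largest positive values were 0.86 for Tspan8, 0.78 for Tspan9 and 0.71 for Tspan2.

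Genes of focal adhesions, the actin-linked contacts, had a median of 0.01 over 10 genes. Lims1 (PINCH) differed by -0.59 and Itgb1, the β1 integrin chain that also pairs with α6, by -0.25, while Zyx (zyxin) and Pxn (paxillin) differed by 0.34 and 0.26. The Itgb1 value was -0.02 in set 1 and -0.49 in set 2. Of proteases that shed collagen XVII or process matrix proteins, with a median of 0.20 over 9 genes, Mmp2 (gelatinase A) differed by 1.35 and Tll1 (a tolloid protease) by 0.82. The Mmp2 value was 2.00 in set 1 and 0.70 in set 2, and 0.78 without the WT set 1 array. Adam9, a sheddase of collagen XVII, differed by 0.28 and Adam8 by 0.28, the latter with -0.02 in set 1 and 0.57 in set 2. No gene of these lists except Tspan13 passed limma's test with the block, and none passed without it.

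**Figure D4:**
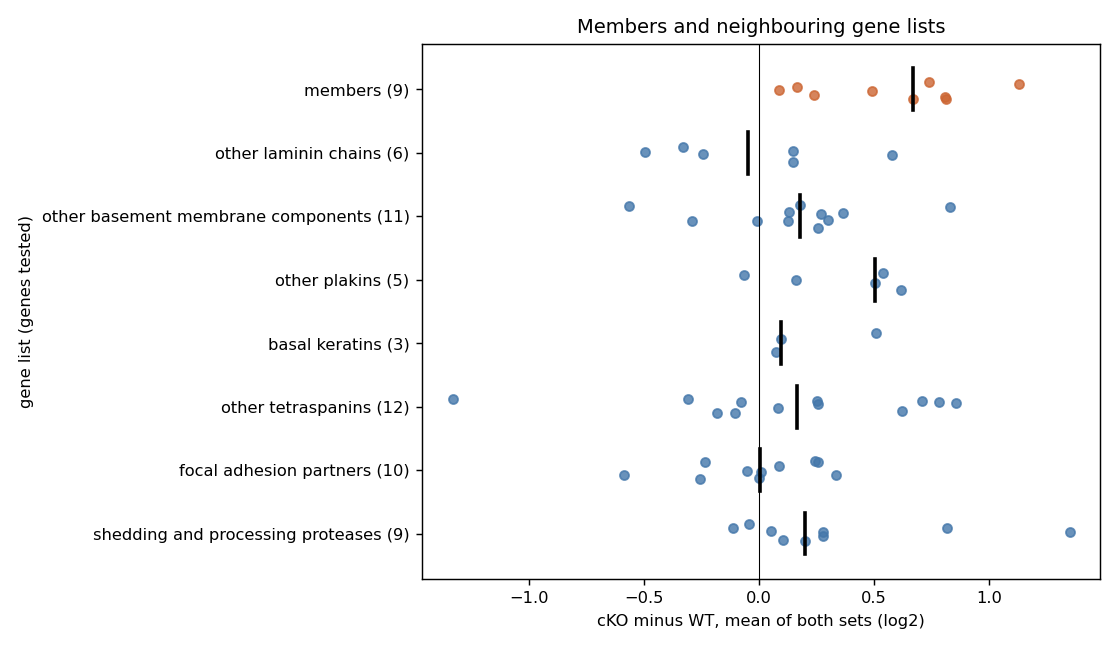
Difference of cKO minus WT (log2, mean of both sets) of each tested gene, 1 point per gene, for the 9 members (orange) and the neighbouring gene lists (blue), with the list's median as a black bar; the vertical scatter within a row carries no value. The members' median is 0.67, that of other plakins 0.51, and those of the remaining lists lie between -0.05 and 0.20.

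The genes whose profile over the 4 arrays was nearest to that of Col17a1, of 8022 others compared, were Igdcc4, Dbndd2 and Col16a1, at a root mean square distance of 0.0276, 0.0284 and 0.0321. Nearest to Col7a1 were Eva1c (0.0809), Tgfa (0.0835) and Gata6 (0.0854). Col16a1, a collagen gene of the fibril-associated class, read 9.40 and 9.08 in cKO against 8.51 and 8.39 in WT. With 4 arrays many genes share a profile by number alone, and the likeness is a description.

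Of the markers of other cells that the dim filter kept, 1 passed limma's test between genotypes, the endothelial gene Plvap. Tested were 1 of 8 endothelial, 1 of 8 immune, 2 of 6 fibroblast and 3 or 4 markers of each other type. Plvap itself was kept by its WT arrays alone. The part of these other cells in the members' values was not tested. Plvap, a protein of the diaphragms of vessel walls, read 4.29 and 4.19 in cKO against 8.29 and 7.78 in WT (difference -3.79, SE 0.21, limma adjusted p = 0.00652), so that both cKO arrays were below the dim limit. Endothelial cells also use integrin α6 and laminins, and 7 of 8 endothelial markers were lower in cKO within both sets, beside 27.9% of all genes tested. The marker counts in this paragraph include dim genes, whereas the shares cover only genes that the dim filter kept. Their summed linear intensity was 125 to 129 in cKO and 433 to 539 in WT, and Cldn5, Kdr, Pecam1, Tek and Tie1 lay below the dim limit on all arrays. Suprabasal keratinocyte markers were higher in cKO within both sets in 5 of 6 genes, beside 35.8% of all genes tested. Their sums were 22227 to 24946 in cKO and 6931 to 20311 in WT. The WT set 2 array was the low one, and Flg lay below the limit on all arrays. Schwann cells, which carry α6β4 too, had 4 of 4 markers higher in cKO within both sets, beside 35.8% of all genes tested. Their sums were 401 to 402 against 303 to 317. Only 1 of the 4, Pmp22, the brightest, was above the limit on every array. S100b lay below it throughout, and Sox10 and Mbp fell below it on WT set 2 (5.33 and 5.15). Fibroblast, immune, melanocyte and muscle markers had summed intensities of 210 to 374 on every array, with 4 of 6 fibroblast and 7 of 8 immune markers below the limit throughout. In sorted bulk samples a different number of cells of a type and a different amount of RNA per cell cannot be told apart.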

How the data were processed

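Per the labels' protocols, 2 µg of Trizol-extracted RNA per sample was turned into biotinylated cRNA for Affymetrix arrays. The authors deposited 1 intensity per probe set and array, made with RMA per the submitters' processing notes (version and settings not given in the sources used here). The range, 5.29 to 25561, is that of a linear scale, and log2 of the deposited values was used. RMA gives no detection call. The platform annotation gives 1 gene symbol for 20380 of the 22690 probe sets, and only these were used. Each gene was represented by its probe set of highest mean, and genes below percentile 40 of all probe sets (linear 42.2), Xist and Y-linked genes were left out, leaving 8031.

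limma 3.58.1 (R 4.3.3; lmFit, eBayes, all 4 arrays, no covariate, Benjamini-Hochberg over all genes) compared cKO with WT and set 2 with set 1. On simulated data it recovered most changed genes, with false calls above the nominal rate, more so with the block. The planted changes were of several sizes, most of them larger than any member's difference. The recovery is therefore no measure of power for changes of the members' size. SE and p of a second probe set come from a fit of each probe set on its own. The set number was read as pairing the arrays because both arrays of a set share a described state; deviations from the group means correlated with r = 0.192 across genes. Alternatives were the dim filter, the probe set rule, normalisation, a variance trend, the block and each array left out. The members, lists and motifs were chosen with earlier results of these data known. Named genes were all members, up to 4 per list with the largest difference, and the 3 nearest profiles of Col17a1 and Col7a1; Plvap was named after its values were seen.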

Additional observations from a re-analysis of the deposited data

Results flagged for a closer look

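Several probe sets had opposite genotype differences in the sets. The values, set 1 first, were 0.50 and -0.025 for Itga6 1422445_at, 0.31 and -0.14 for Lama3, 1.06 and -0.34 for Dst 1450119_at and -0.22 and 0.29 for Dst 1421276_a_at. For Cd151 they were -0.21 and 0.48 (1424093_x_at), -0.064 and 0.15 (1437670_x_at) and -0.40 and 0.51 (1451232_at).

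Set 2 minus set 1 likewise had opposite signs in the genotypes, cKO first, at -0.00041 and 0.53 for Itga6 1422445_at, -0.032 and 0.42 for Lama3, -0.33 and 0.42 for Dst 1421117_at and -0.24 and 1.16 for Dst 1450119_at. For Cd151 the values were 0.26 and -0.43 (1424093_x_at) and 0.51 and -0.40 (1451232_at). With 1 array per genotype and set, none of these differences between sets or genotypes was tested.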

How the results depend on the processing

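In the genotype comparison the 9 members kept their direction under the other filters, the mean of probe sets, both other normalisations, the variance trend and the replicate block. Col7a1 alone passed under 1 of them, the set as a block (adjusted p = 0.0405). limma called 7 genes in all, 0 with a filter at percentile 60 (816 of 5733 genes at an unadjusted p under 0.05), 28 with a variance trend and robust fitting together and 83 with the set as a replicate block, and 2 to 16 with 1 array left out (2 without WT set 2, 16 without cKO set 2). The members' median of 0.67 was 0.51 with the mean of probe sets, 0.30 over the 18 probe sets above the limit and 0.50 between cKO set 2 and WT set 1, a comparison added after seeing the data. With 1 array left out it ran from 0.44 to 0.90, and Itga6 (-0.024 to 0.50) and Lama3 (-0.12 to 0.30) changed sign. The adjusted p over all alternatives ran from 0.0898 to 0.867 for Col17a1 and from 0.0869 to 0.805 for Lamb3.

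In the set comparison limma called 0 genes (230 at an unadjusted p under 0.05), and 1, not a member, with genotype as a replicate block. The members' median of -0.20 was -0.021 over single probe sets, and -0.62 to 0.19 with 1 array left out, a fit in which set and genotype are no longer balanced. There Col17a1 (-0.74 to 0.19), Itgb4 (-0.83 to 0.032), Cd151 (-0.27 to 0.0021), Dst (-0.39 to 0.48), Lamb3 (-0.64 to 0.23) and Col7a1 (-0.97 to 0.28) changed sign. Of the Cd151 probe sets, 1427525_at and 1451232_at had set differences of 0.11 and 0.058, opposite to the representative one. Causes were not tested. RMA values carry no detection call, so for the dimmest probe sets, Cd151 1420921_at and Dst 1421276_a_at, a difference may be compressed.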
